A study of Homo sapiens and Mus musculus with 69 samples.

Results

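H19, IGF2 and 8 further imprinted genes (DLK1, MEG3, CDKN1C, PEG3, PEG10, GRB10, PLAGL1 and MEST) were followed through bulk RNA-seq of small cell lung cancer (SCLC) cell lines in which Notch signaling was switched on. The list was chosen by the response of H19, the transcript that rose most with doxycycline in REST-KO H82 cells, and was then filled with imprinted genes by name. Of the 10 genes, 10 had a row among the 20516 genes of the human table and 9 among the 18501 genes of the mouse table, where Peg10 had none. The values of the contrast that chose H19 are given as a description, without a test.

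An imprinted gene is read mainly from the copy inherited from 1 parent, a choice set by DNA methylation laid down in the germ line. H19 is a noncoding RNA made from the maternal copy, and its neighbour IGF2 encodes a fetal growth factor made from the paternal copy; a CTCF-bound control region between them decides which of the pair an enhancer can reach. DLK1 and MEG3 form a comparable pair, with DLK1 encoding a membrane protein that modulates Notch signaling. Most of these genes are active before birth and are largely shut in adult lung, and several are read again in tumors. The tables do not separate parental copies, so imprinting itself was not measured.

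The human data comprised 60 libraries in 20 groups of 3, from the SCLC lines H82, H524, H69 and COR-L88. H82, H524 and H69 were sequenced as parental cells and after lentiviral transfer of a doxycycline-inducible NOTCH1 intracellular domain (N1ICD), without doxycycline or with it at 1 µg/mL, and H82 carrying N1ICD was also edited by CRISPR at REST or STING (REST KO, STING KO). H524 additionally carried an inducible REST vector, REST being a repressor of neuronal genes. COR-L88, unedited or STING KO, received DMSO or TAS1440 (an LSD1 inhibitor used to induce Notch signaling) at 100 nM, and unedited cells also TAS1440 plus the γ-secretase inhibitor (GSI) BMS-708163 at 2 µM, which blocks Notch cleavage. KP1, a mouse SCLC line from an Rb1 and Trp53 mutant tumor, gave 9 libraries under DMSO, TAS1440 at 100 nM, or TAS1440 plus the GSI DBZ at 10 µM. COR-L88 and KP1 cells, those under DMSO included, were treated for at least 28 days. Doxycycline-treated cells were the adherent fraction collected after at least 28 days, so in those comparisons the transgene, the time in culture and the selection of attached cells cannot be told apart. Each KO rested on 1 guide. Protein blots in the study were of single-cell KO clones, and the labels do not say which clone or clones gave these libraries. No source used here says that libraries of a group came from separate cultures, so P values measure the spread between libraries only.

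In human GRCh37 coordinates (GENCODE), H19 lies at chr11:2016396-2025782 on the minus strand, 124.6 kb from IGF2 at chr11:2150342-2179621, and CDKN1C lies on the same arm at chr11:2904443-2907005. DLK1 (chr14:101192042-101204561) and MEG3 (chr14:101245747-101327368) are 41.2 kb apart on the plus strand. PEG10 (chr7:94285637-94299007), MEST (chr7:130126012-130146306) and GRB10 (chr7:50657760-50861159) are on chromosome 7, PLAGL1 is at chr6:144261437-144385736 and PEG3 at chr19:57321445-57352096. H19 and MEG3 are annotated as long noncoding RNAs and the other 8 as protein coding. In the mouse (GRCm38), H19 and Igf2 are 72.6 kb apart on chromosome 7.

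H19 is also the precursor of a microRNA, and its mature products are shown because they are the part of H19 with a defined sequence target. The polyA libraries do not measure them. The sequences are from RefSeq (GRCh38.p14, minus strand of chromosome 11), with the seed, bases 2 to 8, in capitals:
hsa-miR-675-5p (chr11:1996800-1996822): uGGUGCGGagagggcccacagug
hsa-miR-675-3p (chr11:1996768-1996787): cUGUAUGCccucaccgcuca

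The 250 bases before the annotated start are shown for H19 and MEST, the members with the greatest rises under N1ICD in H82. RefSeq gave promoter windows (250 bases before to 50 after a start, GRCh38.p14) for 5 of the 10 members, 19 windows in all. Each was searched on both strands for TGGGAA, the core of the RBPJ motif through which Notch acts, and for 2 pieces of the REST motif, TTCAGCACC and GGACAGCGC. TGGGAA was found in 4 of the 19 windows, in the window of H19, in 1 of 5 of MEST and in 2 of 5 of PLAGL1. It was found in 24% of all 35116 windows of this length, and neither REST piece, present in 0.376% and 0.581% of all windows, was found in these 19. Capitals mark the TGGGAA match or its reverse complement TTCCCA:
H19 (chr11:2001267-2001516, minus strand): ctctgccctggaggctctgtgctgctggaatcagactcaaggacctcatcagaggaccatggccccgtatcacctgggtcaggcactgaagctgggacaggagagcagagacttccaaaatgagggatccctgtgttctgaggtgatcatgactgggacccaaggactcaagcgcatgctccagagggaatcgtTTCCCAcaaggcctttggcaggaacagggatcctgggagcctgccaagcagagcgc
MEST (chr7:130486097-130486346, plus strand): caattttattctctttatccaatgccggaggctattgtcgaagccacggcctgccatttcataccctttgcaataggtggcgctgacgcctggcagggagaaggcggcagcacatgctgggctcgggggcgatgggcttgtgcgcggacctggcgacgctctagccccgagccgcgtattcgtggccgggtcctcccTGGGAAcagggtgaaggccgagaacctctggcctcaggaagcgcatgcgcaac
Such a match describes the letters in this window and is not a measured binding site.

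Levels are log2(RPKM + 1), where RPKM is reads scaled by gene length and library size, so that levels of different genes can be set beside each other. A gene was tested in a line when at least 3 of its libraries reached a level of 1, and was called changed at an adjusted P under 0.05 with a difference of at least 1. Differences are between mean levels, with their standard error (SE), and understate the change of low genes because of the added 1. The filter passed 7 members in H82, 9 in H524, 10 in H69, 4 in COR-L88 and 7 in KP1. PLAGL1 in H82 and H69, IGF2 in H524, and H19 and Dlk1 in KP1 passed through 1 group alone, the group in which they were high, so they had to differ there. Their P values and the counts of members called below describe the data and are not evidence about the members. The differences of these genes that were called and tested again stayed called without the filter. That setting reused the same libraries, so it adds no evidence. The share of all tested genes called in the same comparison (the background) is given beside the counts.

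As a check of the labels, NOTCH1 was higher in every doxycycline-treated N1ICD group (4.26 to 10.74 over 15 libraries) than in the matching groups without doxycycline (0.38 to 2.15). Among H82 cells with doxycycline it was 4.26 to 5.56 in unedited, 5.97 to 7.48 in STING-KO and 8.75 to 10.74 in REST-KO cells, without overlap. In comparisons of these groups, the KO and the NOTCH1 level cannot be told apart. With the REST vector in H524, NOTCH1 was 0.46 to 0.53 without doxycycline and 1.41 to 2.29 with it. In COR-L88, NOTCH1 was 1.99 to 2.79 with TAS1440 and 6.71 to 6.75 with TAS1440 plus GSI. REST was 4.95 to 5.89 in REST-KO H82 cells with doxycycline and 6.13 to 6.48 in the unedited cells, and TMEM173, the STING gene, was 1.27 to 2.04 in STING-KO H82 cells with doxycycline and 1.07 to 1.17 without the KO. An edited gene can still be transcribed, so these RNA levels do not check the KOs. Libraries of a group correlated across genes with r of 0.957 to 0.997 in the human table, and TAS1440 libraries 5 and 6 of KP1 gave the lowest, 0.936. Steps between low values put the library sizes at 0.695 to 1.52 times the median in the human table and 0.865 to 1.07 in KP1.

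H19 covered nearly the whole range of the human table, from 0 to 14.90. Unedited H82 cells carrying N1ICD had levels of 1.32, 4.43 and 4.03 without doxycycline and 11.70, 10.24 and 12.36 with it. The groups did not overlap, and the difference was 8.17 (SE 0.85, limma adjusted P = 3.56e-07). In STING-KO H82 cells, H19 was 4.48, 2.50 and 4.13 without doxycycline and 13.27, 13.72 and 13.73 with it. This rise of 9.87 (SE 0.85, limma adjusted P = 4.94e-08) was not shown to differ from that in unedited cells, the difference of the responses being 1.70 (SE 1.21, limma adjusted P = 0.421).

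In REST-KO H82 cells, the contrast on which H19 was selected, the levels were 0.28, 0.82 and 0.54 without doxycycline and 14.43, 14.90 and 13.45 with it. Their mean with doxycycline, 14.26 ± 0.74 (SD, n = 3), was the highest of the 20 human groups. Next came STING-KO H82 cells with doxycycline at 13.57 ± 0.26, whose range overlapped with it, and then H524 N1ICD cells with doxycycline at 12.99 ± 0.07, whose range did not reach that of the STING-KO cells. Parental H82 libraries held 3.36, 0 and 0.

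**Figure D1:**
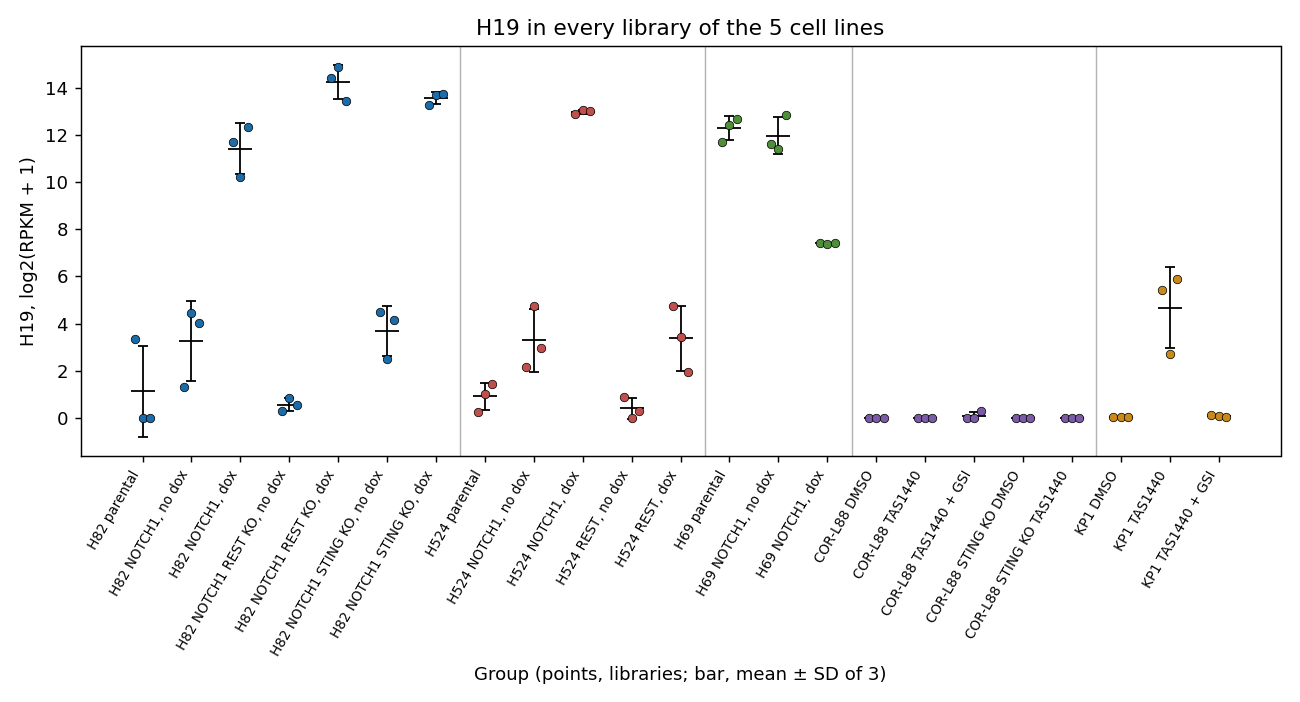
H19 in each of the 69 libraries, as log2(RPKM + 1) on the y axis, by group on the x axis, with vertical lines between cell lines; points are libraries and bars the mean ± SD of 3. H19 was above 10 in every doxycycline-treated N1ICD library of H82 and H524 and in every H69 library without doxycycline, at 7.36 to 7.43 in H69 with doxycycline, and at or near 0 in COR-L88.

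H524 gave the same direction for H19. Its N1ICD cells had 2.16, 4.77 and 2.95 without doxycycline and 12.91, 13.06 and 13.01 with it, a rise of 9.70 (SE 0.66, limma adjusted P = 7.86e-08). With the REST vector the levels went from 0.89, 0 and 0.29 to 4.73, 3.44 and 1.96. This rise of 2.98 (SE 0.66, limma adjusted P = 0.0303) passed the test, but lost it when any of 5 of the 6 libraries was left out (adjusted P 0.0517 to 0.129). The response to N1ICD exceeded the response to REST by 6.72 (SE 0.94, limma adjusted P = 0.000165). H524 N1ICD cells that had not seen doxycycline already held more H19 than parental cells (0.27, 1.01 and 1.44), by 2.39 (SE 0.66, limma adjusted P = 0.0178).

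In H69, H19 moved the other way. Parental libraries (11.72, 12.45 and 12.70) and untreated N1ICD libraries (11.62, 11.42 and 12.87) were high, and doxycycline-treated ones stood at 7.41, 7.36 and 7.43. It fell by 4.57 on the log2 scale (SE 0.38, limma adjusted P = 4.68e-06), with no overlap. COR-L88 listed H19 at 0 in 14 of 15 libraries, and the exception, with TAS1440 plus GSI, was at 0.28.

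Among the human lines, IGF2 reached a level of 1 in H524 and H69 alone. In unedited COR-L88 it was at most 0.01 with DMSO. With TAS1440 it was 0.17 to 0.40 there, and with TAS1440 plus GSI 0.13 to 0.36, under the filter throughout. In H524 N1ICD cells it was 0.09, 0.67 and 0.06 without doxycycline and 5.79, 5.83 and 6.25 with it, a difference of 5.68 (SE 0.17, limma adjusted P = 1.26e-11). The response exceeded that to REST, under which no library was above 0.0225, by 5.68 (SE 0.24, limma adjusted P = 1.24e-09). Since IGF2 passed the filter through the N1ICD group with doxycycline alone, these values are a description. H69 had the opposite pattern, at 4.23, 3.70 and 4.90 without doxycycline and 0.36, 0.25 and 0.29 with it, a change of -3.97 (SE 0.28, limma adjusted P = 1.53e-06). In H82, where H19 rose, IGF2 stayed at or below 0.07 in unedited and STING-KO cells and reached 0.15 to 0.40 in REST-KO cells with doxycycline, under the filter throughout. Over the 20 human groups, 3 had a mean IGF2 level above 1, and all 3 also had H19 above 11, whereas 3 further groups with H19 above 11, all H82 with doxycycline, had IGF2 below 0.3.

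DLK1, next to MEG3, fell with N1ICD in unedited H82, in H524 and in H69. In unedited H82 it went from 4.06, 2.70 and 3.70 to 1.56, 2.28 and 1.21, which do not overlap (difference -1.81, SE 0.40, limma adjusted P = 0.0012). In H524 N1ICD cells it was 9.70, 6.69 and 5.98 without doxycycline and 4.62, 5.16 and 4.13 with it (difference -2.82, SE 0.74, limma adjusted P = 0.0102). The REST vector in H524 gave 8.83, 7.40 and 7.39 against 5.44, 4.18 and 5.39, a difference of -2.87 (SE 0.74) that missed the threshold (limma adjusted P = 0.0575), and the responses to N1ICD and REST differed by 0.06 (SE 1.05, limma adjusted P = 0.979). In H69, DLK1 was 7.79, 8.38 and 8.60 without doxycycline and was listed at 0 in each of the 3 libraries with it (limma adjusted P = 1.02e-09). DLK1 was listed at 0 in all 15 COR-L88 libraries.

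Both KOs of H82 had little DLK1 even without doxycycline. It was listed at 0 in the 3 REST-KO libraries and at 0.58, 0 and 0 in the STING-KO libraries, against 2.70 to 4.06 in unedited cells (limma adjusted P = 2.62e-05 and 1.19e-05). With doxycycline, REST-KO cells had 1.05, 0 and 0.44 and STING-KO cells were listed at 0 in every library. Whether this belongs to the edited gene or to the derivation of those cells, such as the founding cell of a clone, cannot be told apart with 1 guide each.

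MEG3, a noncoding RNA of the same cluster, was read mainly in H69. Parental libraries held 6.39, 5.82 and 6.27, untreated N1ICD libraries 6.96, 7.24 and 7.21, and doxycycline-treated ones 2.08, 1.82 and 2.01, a change of -5.16 (SE 0.15, limma adjusted P = 7.51e-09). Parental H524 had 1.76, 1.51 and 0.86, and H524 N1ICD cells without doxycycline 0.26, 0.24 and 0.03 (difference -1.20, SE 0.19, limma adjusted P = 0.000734). In H82, COR-L88 and KP1, MEG3 was at most 0.38 in any library.

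MEST, which encodes a protein of the α/β hydrolase fold and is read from the paternal copy, showed the second large rise in H82. It was 0.21, 0.55 and 0.50 without doxycycline and 6.67, 6.81 and 6.50 with it in unedited cells (difference 6.24, SE 0.35, limma adjusted P = 1.44e-10). STING-KO cells went from 1.07, 0.54 and 0.76 to 5.98, 7.34 and 6.93 (difference 5.96, SE 0.35, limma adjusted P = 4.03e-10). REST-KO cells had 0, 0.04 and 0.16 without doxycycline and 4.70, 5.46 and 3.57 with it. With doxycycline, REST-KO cells were thus below unedited ones, without overlap, by 2.08 on the log2 scale (difference -2.08, SE 0.35, limma adjusted P = 0.000178).

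MEST fell in H69 and in H524 N1ICD cells, which both expressed it without doxycycline. H69 went from 8.27, 8.43 and 8.64 to 1.26, 1.52 and 1.44 (difference -7.04, SE 0.10, limma adjusted P = 1.56e-10). H524 N1ICD cells went from 6.95, 6.33 and 7.10 to 5.38, 5.02 and 5.12 (difference -1.62, SE 0.21, limma adjusted P = 5.08e-05). The REST vector left H524 at 7.44, 7.04 and 7.17 against 7.51, 7.11 and 7.05, and the N1ICD response differed from the REST response by -1.61 (SE 0.30, limma adjusted P = 0.00181). COR-L88 held MEST between 4.17 and 5.39 in all its libraries, and no comparison there was called.

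**Figure D2:**
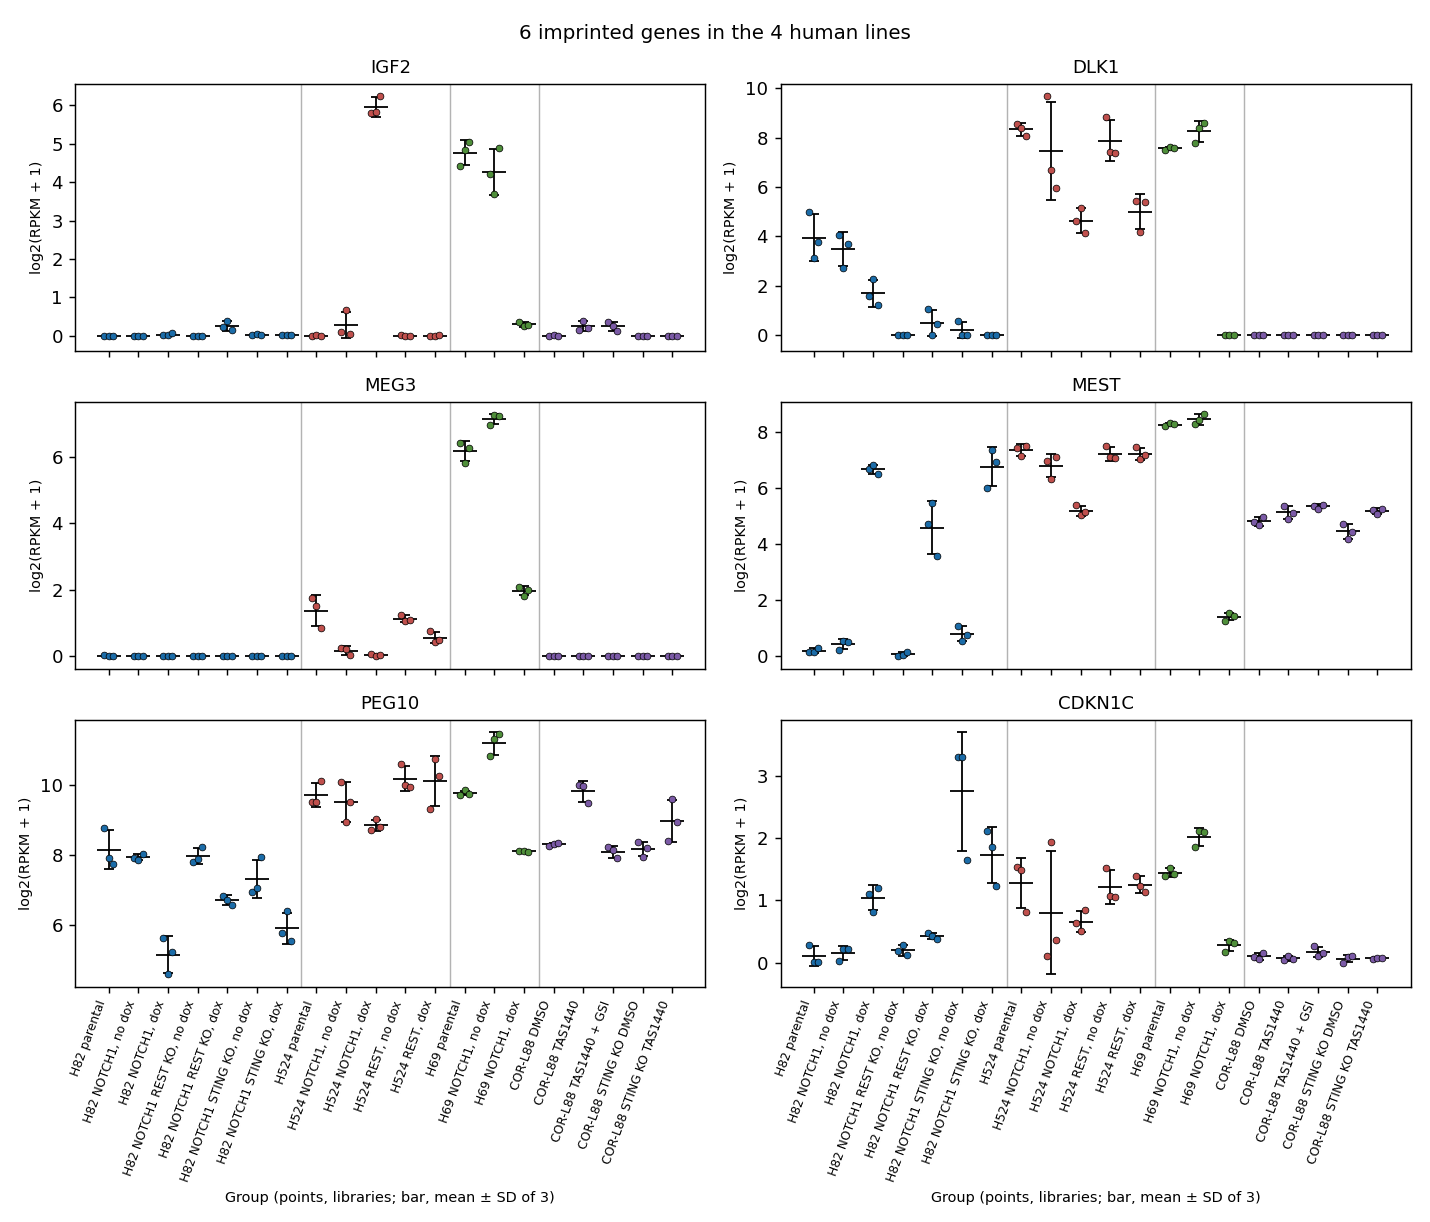
Levels of IGF2, DLK1, MEG3, MEST, PEG10 and CDKN1C as log2(RPKM + 1) on the y axes (each with its own scale) in the 60 human libraries, by group on the x axis; points are libraries and bars the mean ± SD of 3. MEST is at most 1.07 in H82 without doxycycline and at 3.57 to 7.34 with it, while in H69 all 6 genes are lower with doxycycline than without.

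PEG10, a domesticated retrotransposon gene needed for placenta formation, was expressed in every human library (4.61 to 11.43). Unedited H82 cells went from 7.92, 7.85 and 8.03 to 5.65, 4.61 and 5.24 (difference -2.77, SE 0.31, limma adjusted P = 8.81e-07). STING-KO cells went from 6.95, 7.07 and 7.93 to 5.78, 6.42 and 5.54 (difference -1.40, SE 0.31, limma adjusted P = 0.00157), and H69 from 10.81, 11.29 and 11.43 to 8.12, 8.12 and 8.08 (difference -3.07, SE 0.14, limma adjusted P = 9.9e-08). COR-L88 gave the other direction. PEG10 was 8.25, 8.31 and 8.34 with DMSO, 9.99, 9.95 and 9.47 with TAS1440, and 8.24, 8.13 and 7.90 with TAS1440 plus GSI, so that TAS1440 alone stood above both (differences 1.50 and 1.71, SE 0.24, limma adjusted P = 0.00012 and 7.44e-05). In STING-KO COR-L88 cells the difference with TAS1440 was 0.80 (SE 0.24, limma adjusted P = 0.0149), under the size limit of 1, and was not called. The STING-KO response was not shown to differ from the unedited one (difference -0.70, SE 0.34, limma adjusted P = 0.214).

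CDKN1C, an inhibitor of cyclin-dependent kinases, was low in most groups and highest in STING-KO H82 cells. There it was 3.30, 3.30 and 1.64 without doxycycline, against 0.03, 0.22 and 0.21 in unedited cells (difference 2.59, SE 0.31, limma adjusted P = 1.06e-05). With doxycycline it was 2.11, 1.85 and 1.23 in STING-KO cells, a difference of -1.02 (SE 0.31, limma adjusted P = 0.016) whose groups overlap, and which was lost without either of 2 untreated libraries or 1 treated library (adjusted P 0.0918 to 0.0985). Unedited cells went to 1.10, 0.82 and 1.20, and the 2 responses differed by -1.90 (SE 0.44, limma adjusted P = 0.0111). In H69, CDKN1C fell from 1.86, 2.11 and 2.10 to 0.18, 0.34 and 0.32 (difference -1.74, SE 0.09, limma adjusted P = 2.1e-07).

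PLAGL1, a zinc finger transcription factor known to regulate other imprinted genes, was the 1 member that rose in H69, from 0.04, 0.03 and 0.04 to 1.61, 1.40 and 1.48 (difference 1.46, SE 0.07, limma adjusted P = 1.32e-07). With doxycycline in H82 it was 2.19, 1.96 and 1.67 in REST-KO cells against 0.66, 0.84 and 0.80 in unedited cells (difference 1.17, SE 0.16, limma adjusted P = 1.46e-05). In both lines it passed the filter through its high group alone. In COR-L88 it was 2.52, 2.27 and 2.44 with TAS1440 and 1.49, 1.47 and 1.17 with TAS1440 plus GSI (difference 1.03, SE 0.16, limma adjusted P = 0.000196). This call sat at the size limit, and the difference was 0.90 and 0.91 after 2 other ways of scaling libraries.

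GRB10, an adaptor that restrains insulin and IGF receptor signaling, stayed between 3.97 and 7.44 in the human libraries. It was lower in H524 N1ICD cells without doxycycline (4.48, 3.97 and 4.92) than in parental H524 (6.58, 6.29 and 6.72; difference -2.07, SE 0.22, limma adjusted P = 3.77e-05). H69 gave 7.04, 7.34 and 7.44 without doxycycline and 6.06, 6.01 and 6.04 with it (difference -1.24, SE 0.12, limma adjusted P = 1.26e-05). PEG3, a zinc finger protein gene read from the paternal copy, passed the filter in H69 alone among the human lines, at 3.28, 3.97 and 3.69 without doxycycline and 1.28, 1.25 and 1.20 with it (difference -2.40, SE 0.15, limma adjusted P = 6.84e-07).

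**Figure D3:**
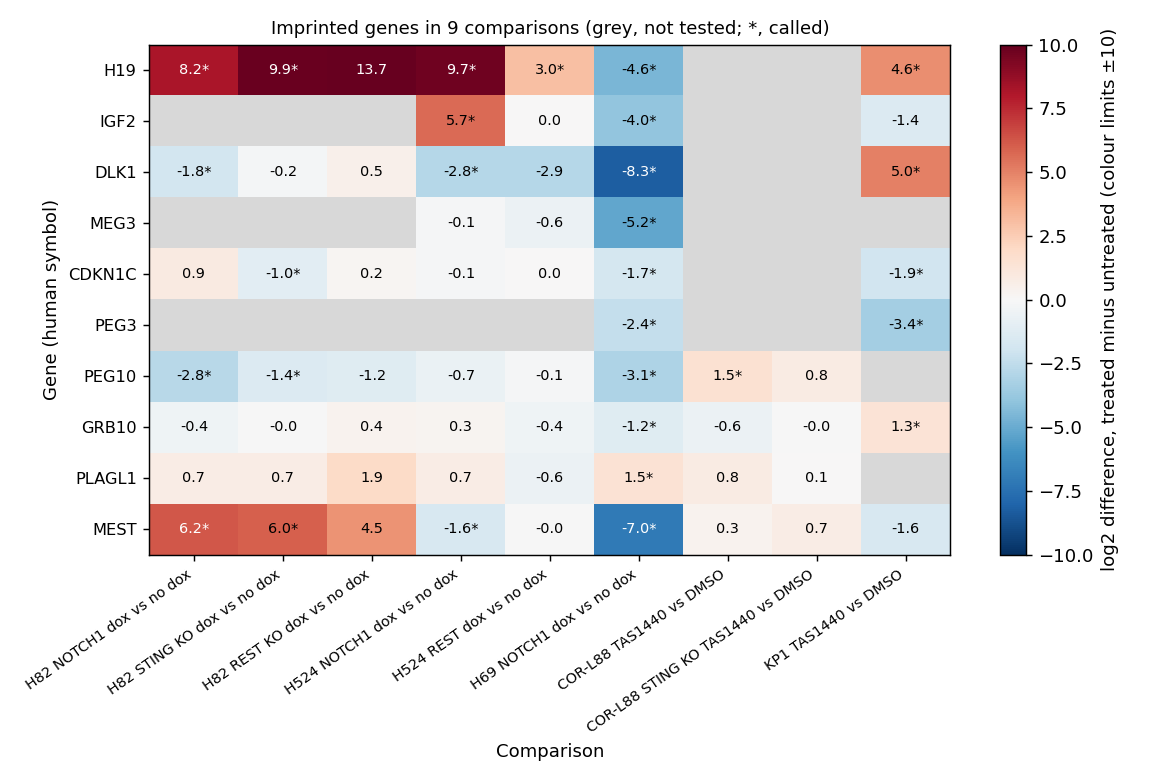
Difference in mean log2(RPKM + 1), treated minus untreated, for the 10 genes (rows) in 9 comparisons (columns); red is higher, blue lower, grey not tested, colors saturate at ±10, and an asterisk marks a call. The REST-KO H82 column chose H19 and carries no asterisks. The H69 column is blue but for PLAGL1, and H19 is red in H82, H524 and KP1.

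Counted over the members, 4 of 7 were called with doxycycline in unedited H82 (2 higher, 2 lower), where 27.1% of all tested genes were called, and 4 of 7 in STING-KO H82 (2 higher, 2 lower; background 20.2%). In REST-KO H82 the count was 4 of 7 with a background of 29.9%, and nothing is read from it since this contrast chose H19. In H524, 4 of 9 were called with N1ICD (2 higher, 2 lower; background 18.6%) and 1 of 9 with REST (background 1.87%). All 10 members were called in H69, 9 lower and 1 higher, where 41.8% of genes were called. The median difference over the members in H69 was -3.52, against 0.08 over all tested genes. In unedited H82 the median was 0.72 against -0.0026 over all genes, and in H524 N1ICD cells -0.14 against -0.02, with H19 at the top in both.

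Between genotypes at the same treatment, the comparisons share libraries with those above, and the counts are not independent of them. NOTCH1 was also apart between the H82 genotypes with doxycycline, and its part in these differences was not tested. With doxycycline, 4 of the 6 members other than H19 were called between REST-KO and unedited H82 (background 17.6%), with PEG10 and PLAGL1 higher and DLK1 and MEST lower in the KO. The DLK1 call there was lost without either of 2 REST-KO libraries or 1 unedited library (adjusted P 0.0655 to 0.144). Without doxycycline, DLK1 and GRB10 were lower in REST-KO cells, 2 of the same 6 members (background 6.24%). STING-KO H82 differed from unedited cells in DLK1 alone with doxycycline (1 of 7, background 16.5%), H19 being 2.14 higher with an SE of 0.85 and a limma adjusted P of 0.0546. That H19 difference passed the test after 2 other ways of scaling libraries, in a fit of the 2 groups alone and without unedited library 9. Without doxycycline, DLK1 and CDKN1C were called (2 of 7, background 14.4%). For the difference of the responses, CDKN1C was called (1 of 7, background 7.12%), joined by DLK1 without unedited library 5 and by PEG10 without unedited library 7 or STING-KO library 57.

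In H524, N1ICD and REST with doxycycline differed in 6 of 9 members (background 23.8%), with H19, IGF2 and PLAGL1 higher and PEG10, GRB10 and MEST lower under N1ICD. The difference of the responses was called for H19, IGF2, PLAGL1 and MEST (4 of 9, background 15.6%). PEG10 in the former lost its call without REST library 38, at -0.94 (adjusted P = 0.0529).

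Some members also differed between cells carrying a vector without doxycycline and parental cells. NOTCH1 was 0.79 to 1.52 in such N1ICD cells of H524 (parental 0.23 to 0.73) and 0.88 to 1.45 in H82 (parental 0.01 to 0.04). In H69 it was lower than in parental cells, at 0.38 to 0.39 against 0.58 to 0.62. The vector, NOTCH1 expressed without doxycycline and the derivation of the cells cannot be told apart. In H524, N1ICD cells differed from parental cells in 3 of 9 members (H19 higher, MEG3 and GRB10 lower; background 12.1%), the H19 call being lost without parental library 19 or N1ICD library 23 (adjusted P = 0.0679 and 0.054). Cells with the REST vector differed in 0 of 9, by limma, with 0 at an unadjusted P under 0.05 (background 0.264%). In H82 the count was 0 of 7 (background 6.41%), but H19 was called without parental library 1 or N1ICD library 4. In H69, PEG10 was higher by 1.42 (SE 0.14, limma adjusted P = 0.000188; 1 of 10, background 5.27%), and MEG3, higher by 0.97, was called as well without parental library 46 or 48 or N1ICD library 49.

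COR-L88 gave fewer calls, with 4 members above the filter. PEG10 was called for TAS1440 against DMSO (1 of 4, background 22.8%), and PEG10 and PLAGL1 for TAS1440 against TAS1440 plus GSI (2 of 4, background 14.7%). PLAGL1 in the latter came to 0.98 without TAS1440 library 13 and 0.93 without TAS1440 plus GSI library 18, under the size limit. No member was called by limma for TAS1440 plus GSI against DMSO (0 of 4, background 9.02%), for TAS1440 in STING-KO cells (0 of 4, background 16%), or between STING-KO and unedited cells with TAS1440 (0 of 4, background 6.53%) or DMSO (0 of 4, background 1.47%). At an unadjusted P under 0.05 these 4 comparisons gave 1, 2, 3 and 1 of the 4 members. PEG10 was called for TAS1440 in STING-KO cells without library 43. PLAGL1, at -0.99 in STING-KO against unedited cells with TAS1440, was called without unedited library 14 or STING-KO library 44, and PEG10 as well without library 44.

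H19 also rose in the mouse line KP1, under TAS1440. H19 was 0.03, 0.03 and 0.04 with DMSO, 5.43, 2.70 and 5.88 with TAS1440, and 0.12, 0.09 and 0.03 with TAS1440 plus GSI. TAS1440 stood above DMSO by 4.63 and above TAS1440 plus GSI by 4.59 (SE 0.66, limma adjusted P = 0.000533 and 0.000662), comparisons that share the TAS1440 libraries. Dlk1 also rose, at 0.09, 0.25 and 0.10 with DMSO, 5.64, 5.36 and 4.56 with TAS1440, and 0.09, 0 and 0.25 with TAS1440 plus GSI (differences 5.04 and 5.07, SE 0.24, limma adjusted P = 1.51e-06 and 1.65e-06). H19 and Dlk1 passed the filter through the TAS1440 group alone, so these values are a description.

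Igf2, by contrast, was high from the start in KP1, at 5.43, 5.55 and 5.32 with DMSO, 5.78, 1.32 and 5.05 with TAS1440, and 4.58, 4.74 and 4.39 with TAS1440 plus GSI. TAS1440 library 5, the lowest of these, was also the lowest TAS1440 library for H19, and the difference of Igf2 from DMSO, -1.38 (SE 0.92), was not called (limma adjusted P = 0.273). Mest varied most, at 1.02, 0.29 and 6.10 with TAS1440 against 4.30, 4.41 and 3.52 with DMSO, and was not called (limma adjusted P = 0.363). Meg3 was listed at 0 in 8 of 9 libraries, and Plagl1 stayed below 0.49.

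Cdkn1c was 3.45, 3.46 and 3.58 with DMSO, 1.23, 1.27 and 2.33 with TAS1440, and 4.76, 4.82 and 5.04 with TAS1440 plus GSI. It was lower with TAS1440 than with DMSO (difference -1.88, SE 0.28, limma adjusted P = 0.000612) or with the GSI added (difference -3.26, SE 0.28, limma adjusted P = 2.87e-05). Peg3 was 4.89, 4.75 and 4.43 with DMSO, 0.34, 1.11 and 2.53 with TAS1440, and 3.03, 3.34 and 3.57 with TAS1440 plus GSI, with TAS1440 below both (differences -3.37 and -1.99, SE 0.46, limma adjusted P = 0.00041 and 0.00947). Grb10 rose from 0.91, 0.91 and 0.84 with DMSO to 2.54, 1.75 and 2.40 with TAS1440 (difference 1.34, SE 0.19, limma adjusted P = 0.000553).

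Of the 7 members tested in KP1, 5 were called for TAS1440 against DMSO (3 higher, 2 lower; background 18.8%), 4 for TAS1440 against TAS1440 plus GSI (2 higher, 2 lower; background 16.5%) and 1, Cdkn1c, for TAS1440 plus GSI against DMSO (background 1.21%). The Cdkn1c difference of 1.38 in the last (SE 0.28, limma adjusted P = 0.041) was not called once any 1 of the 6 libraries was left out (adjusted P 0.0967 to 0.182).

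**Figure D4:**
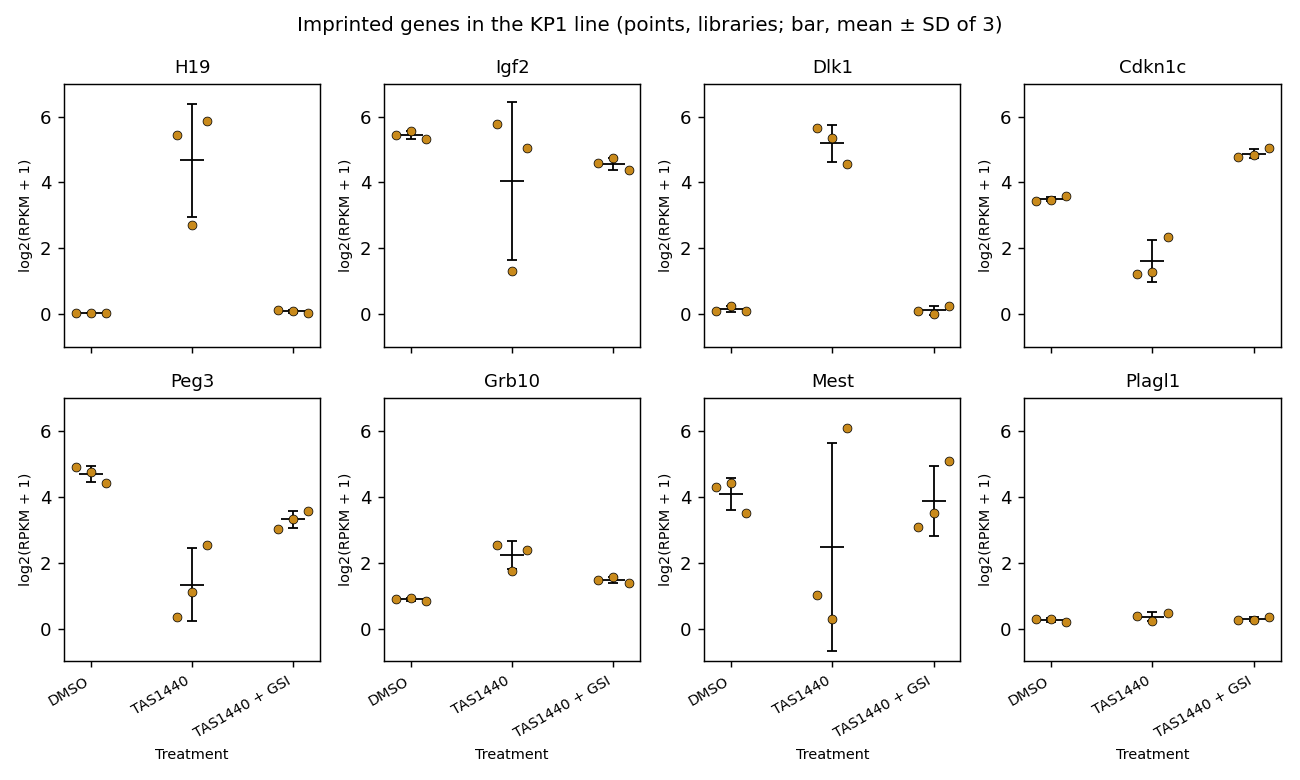
Levels of 8 imprinted genes in KP1 as log2(RPKM + 1) on the y axes, which share 1 scale, under DMSO, TAS1440 and TAS1440 plus GSI; points are libraries and bars the mean ± SD of 3. H19 and Dlk1 are above 2.6 in every TAS1440 library and below 0.3 elsewhere, and Igf2 and Mest spread widely within TAS1440.

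Markers of cell state moved in most of these comparisons. The summed RPKM of 8 neuroendocrine SCLC markers was 8680 to 22078 in unedited H82 N1ICD cells without doxycycline and 25.1 to 49.8 with it, and in H69 it was 1183 to 2223 and 13.3 to 14.3, with NEUROD1 at 0 in the latter. In H524 it was 12340 to 25896 and 631 to 1531, and in KP1 596 to 652 with DMSO and 0.53 to 63.5 with TAS1440. In COR-L88 it was 732 to 838 with DMSO, 75.6 to 113 with TAS1440 and 327 to 383 with TAS1440 plus GSI. The REST vector in H524, where the call of the H19 rise depended on single libraries, had 15075 to 28538 without doxycycline and 24564 to 39354 with it. The 6 markers of a non-neuroendocrine or mesenchymal state went from 55.8 to 101 up to 406 to 551 in H82, from 60.5 to 87.8 up to 1348 to 1355 in H69, and from 1.65 to 2.53 up to 2090 to 2881 in KP1. They were 14.5 to 27.5 with DMSO, 528 to 719 with TAS1440 and 149 to 195 with TAS1440 plus GSI in COR-L88, and 67.5 to 88.9 without and 35.8 to 54.5 with doxycycline under the REST vector in H524. The 6 fibroblast markers reached 1067 to 2089 in H82 with doxycycline (3 of 6 at a mean level of 1 or more, THY1 at 0), 4122 to 5965 in H524 N1ICD cells (4 of 6) and 13747 to 14458 in H69 (5 of 6), against at most 48.3, 33.4 and 12.9 without doxycycline. COL3A1 made up most of these sums, at a median level of 10.80, 12.09 and 13.52. In KP1 they were 1.41 to 4.74 with DMSO and 1.29 to 286 with TAS1440. Endothelial markers were at most 0.181, and the 4 immune markers at most 28.5, with CD3E at or below 0.142 in every human library. The part of these changes of state in the levels of the imprinted genes was not tested, and in bulk libraries fewer cells of a type and less RNA per cell cannot be told apart.

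The pattern of H19 over the 20 human group means was most like that of CD82, a tetraspanin of the cell surface (Pearson r = 0.934), TNFAIP8 (0.926) and DENND2A (0.914), among 15878 other genes. IGF2 was closest to IGF2-AS (0.987), GBP1P1 (0.967) and the chloride channel gene ANO1 (0.931). IGF2-AS overlaps IGF2 on the opposite strand, and although the library kit keeps the strand, the counting setting is not given in the sources used here, so their reads may not have been separated. DLK1 was closest to POU3F1 (0.947), PREX2 (0.939) and PCSK6 (0.939), and MEG3 to MEG9 (0.983), a transcript of the same cluster, TNFAIP8L3 (0.982) and LINC00491 (0.980). Within the list, H19 and IGF2 gave r = 0.585, and DLK1 and MEG3 0.578. All groups of a line share its background in these values, and they describe 20 points.

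Of 35 other imprinted genes, 34 were in the human table and 26 in KP1. The 3 called in the most comparisons were PHLDA2, a growth-restraining gene near CDKN1C, OSBPL5, a lipid transfer protein gene, and NDN, a gene of the Prader-Willi region. Other genes named beside a count were chosen after their values were seen. In unedited H82 with doxycycline, 4 of 24 tested were higher (ATP10A, DIRAS3, OSBPL5, PHLDA2) and 1, GNAS, lower, where 27.1% of all tested genes were called. H524 N1ICD cells had 4 of 26 higher and 1 lower (background 18.6%), and H69 had 4 of 24 higher (NDN, OSBPL5, PHLDA2, ZNF597) and 5 lower (background 41.8%). These shares were near or below the background. In H69, where 9 of the 10 members fell, PHLDA2 rose from a mean of 8.12 to 10.27 (difference 2.16, SE 0.08, limma adjusted P = 2.96e-08) and NDN from 0.23 to 3.90 (difference 3.67, SE 0.17, limma adjusted P = 1.16e-07). The NDN mean was 0 in parental H69, so NDN passed the filter there through the doxycycline group alone, and its difference is a description. PHLDA2 also rose in unedited H82 (0.36 to 4.89), in H524 N1ICD cells (5.46 to 8.66) and with TAS1440 in COR-L88 (4.31 to 7.00), with differences of 4.53, 3.20 and 2.70 (limma adjusted P = 2.94e-07, 0.000168 and 3.65e-05). Osbpl5 rose in KP1 with TAS1440, from 0.48 to 3.21 (difference 2.74, SE 0.20, limma adjusted P = 9.81e-06). There 3 of the 10 tested were higher and 4 lower (background 18.8%), and in COR-L88 with TAS1440 4 of 23 were higher and 3 lower (background 22.8%). The median difference over the list was 0.26 in H82, 0.06 in H524 N1ICD cells, -0.31 in H69 and 0.10 in KP1, against -0.0026, -0.02, 0.08 and 0.02 over all tested genes.

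The list of the IGF axis held 18 genes: the ligands IGF1 and INS, receptors, adaptors, IGF-binding proteins, IGF2 mRNA-binding proteins and PAPPA. With doxycycline, 7 of 16 tested were higher and 2 lower in unedited H82 (background 27.1%). In H524 N1ICD cells 4 of 14 were higher and 1 lower (background 18.6%), and in H69 8 of 15 higher and 1 lower (background 41.8%). IGFBP7, a secreted binding protein, rose in all 3, from means of 0.03, 0.12 and 0.34 to 6.92, 7.01 and 7.91 (differences 6.89, 6.89 and 7.57, limma adjusted P = 1.14e-12, 2.69e-12 and 1.39e-10). In the other H524 groups its mean was at most 0.29, so it passed the filter there through the N1ICD group with doxycycline alone. In H69 the means without doxycycline were 0.34 and, in parental cells, 0.42. The H524 and H69 differences of IGFBP7 are therefore a description. It also rose in COR-L88 with TAS1440, from 0.10 to 4.43 (difference 4.33, SE 0.45, limma adjusted P = 2.74e-06). IGFBP5 rose in unedited H82 (0.73 to 4.81) and H524 N1ICD cells (2.98 to 7.47) but fell in COR-L88 with TAS1440 (9.53 to 7.82; difference -1.72, SE 0.24, limma adjusted P = 4.02e-05). Igfbp4 rose in KP1 with TAS1440, from 0.78 to 6.74 (difference 5.97, SE 0.56, limma adjusted P = 4.3e-05), where 2 of 8 tested genes were higher and 1 lower (background 18.8%). In COR-L88 with TAS1440, 4 of 12 were higher and 2 lower (background 22.8%). Median differences over the list were 0.64 in H82, 0.38 in H524 N1ICD cells, 1.16 in H69 and 0.41 in KP1.

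A last list held 13 genes that set or keep imprints. With doxycycline, 0 of 10 were higher and 3 lower in unedited H82 (CTCFL, TET1, TRIM28; background 27.1%), 0 of 9 higher and 1 lower in H524 N1ICD cells (UHRF1; background 18.6%), and 1 of 9 higher and 0 lower in H69 (TET3; background 41.8%). With TAS1440, 1 of 9 was lower in COR-L88 (CTCF; background 22.8%) and 1 of 7 higher in KP1 (Zfp57; background 18.8%). UHRF1 was also higher in REST-KO than in unedited H82 with doxycycline, by 1.11 (SE 0.33, limma adjusted P = 0.0141). TET1, which oxidizes 5-methylcytosine, went from a mean of 2.91 to 1.81 in H82 (difference -1.10, SE 0.28, limma adjusted P = 0.0033), and UHRF1, which brings DNMT1 to replicating DNA, from 4.00 to 2.97 in H524 (difference -1.04, SE 0.29, limma adjusted P = 0.0154). TET3 went from 5.10 to 7.09 in H69 (difference 1.99, SE 0.08, limma adjusted P = 6.44e-08). DNA methylation was not measured in these libraries.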

How the data were processed

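PolyA RNA-seq libraries were prepared with the Illumina Stranded mRNA kit. The authors trimmed reads with Cutadapt, aligned them with STAR, quantified genes with RSEM, scaled them by TMM in edgeR and deposited log2 RPKM values. The human and KP1 tables were scaled separately and were not compared by test. The submitters' processing notes name hg19 and mm10. Versions, annotation and the strand setting of counting are not given in the sources used here. An added 1 before the log was inferred from the floor at exactly 0. Read counts are unknown, so no counting intervals are given, and relative library sizes come from steps between low values.

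The deposited log2 values were fitted with limma 3.58.1 (R 4.3.3; moderated variances with a trend), with 1 mean per group and all libraries of a line. Genes at a level of 1 or more in at least 3 libraries of the line were tested, with two-sided P values adjusted by Benjamini-Hochberg over all of them. The script was tested on simulated data. Tables and plots used Python 3.11.15, pandas 2.3.3, numpy 2.4.6 and matplotlib 3.10.9. All 10 members were named. Of the lists (other imprinted genes, IGF axis, imprint control), the 3 genes called in the most comparisons were named, and for likeness the 3 genes with the highest Pearson r. The members and lists were chosen with earlier results of these data known. Alternatives were quantile normalization, a pseudocount of 0.1, no filter, variances without a trend, centring libraries on their median, a fit of the compared groups alone, Spearman in place of Pearson, and leaving out each library.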

Additional observations from a re-analysis of the deposited data

Results flagged for a closer look

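In 4 genes the response to N1ICD took opposite directions in different lines, with every treated library on 1 side of every untreated library in each line named. H19 rose by 8.17 in H82 and 9.70 in H524 and changed by -4.57 in H69. IGF2 changed by 5.68 in H524 and -3.97 in H69. MEST changed by 6.24 in H82, -1.62 in H524 and -7.04 in H69. CDKN1C differed by 0.89 in H82, which was not called, and by -1.74 in H69. These differences between lines were not tested, and the lines differ in more than their response.

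In H524 the response to N1ICD differed from that to REST by 6.72 for H19, 5.68 for IGF2, 1.27 for PLAGL1 and -1.61 for MEST, each past the limma test of the difference itself. IGF2 passed the filter on low values through the N1ICD group with doxycycline alone, so its difference is a description. In H82 the CDKN1C response of STING-KO cells differed from that of unedited cells by -1.90, also by a test of the difference. Groups of 3 libraries were too small for the test of single outlying libraries.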

How the results depend on the processing

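No paired analysis was possible because library numbers are unique within each table and link no libraries across groups. All 60 member differences tested again had already been called in the comparisons above. They included genes that passed the filter only through the group in which they were high. Of the 60, 52 were called under every setting and none reversed. Since the settings reused most or all of the same libraries, this count was partly fixed by that choice. It describes the calls and is not evidence about the members. Beyond single libraries, CDKN1C in STING-KO H82 lost its call with a pseudocount of 0.1 and in a fit of the compared groups alone, as did, in the latter, DLK1 with N1ICD, H19 with REST and H19 in N1ICD against parental cells, all in H524.

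With a pseudocount of 0.1, the members called went from 0 to 2 in H82 without doxycycline against parental cells, from 1 to 2 in the same comparison of H69, from 1 to 2 for TAS1440 in COR-L88, from 0 to 1 for STING KO against unedited COR-L88 with TAS1440, and from 1 to 0 for TAS1440 plus GSI against DMSO in KP1, as also without a filter. A fit of the compared groups alone gave 2 in KP1 and 2 for STING-KO against unedited H82 with doxycycline, where quantile normalization and median centring also gave 2. Those scalings gave 1 in place of 2 for TAS1440 against TAS1440 plus GSI in COR-L88.

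Leaving out single libraries gave 1 to 2 members for STING-KO against unedited H82 with doxycycline, 0 to 1 for H82 against parental cells, 1 to 2 for the difference of the STING-KO responses, 0 to 1 for REST in H524, 1 to 2 for H69 against parental cells, 1 to 2 for TAS1440 against TAS1440 plus GSI, 0 to 1 for TAS1440 in STING-KO COR-L88, 0 to 2 for STING KO against unedited COR-L88 with TAS1440, and 0 throughout for TAS1440 plus GSI against DMSO in KP1. The causes were not tested.

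Spearman's rho in place of Pearson's r gave 0.817 for TNFAIP8 and 0.903 for DENND2A with H19, 0.749 for IGF2-AS, 0.649 for GBP1P1 and 0.695 for ANO1 with IGF2, 0.875 for POU3F1 and 0.891 for PCSK6 with DLK1, and 0.920 for MEG9, 0.910 for TNFAIP8L3 and 0.602 for LINC00491 with MEG3. These 10 genes were no longer among the 3 highest, and 2, CD82 and PREX2, still were. By rho, TNFAIP8 ranked 77, IGF2-AS 49, ANO1 113, GBP1P1 199 and LINC00491 881 of 15878 genes.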
